A study of Mus musculus with 3 samples.

Results

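The genes described here are 10 genes of glucose uptake and glycolysis, taken by gene symbol from the 50600 genes counted in each library: the glucose transporter gene Slc2a1 and the enzyme genes Hk2, Gpi1, Pfkl, Aldoa, Tpi1, Gapdh, Pgk1, Pkm and Ldha. They were counted by RNA-seq in 3 libraries of primary T-helper 1 (Th1) cells from mice of strain C57BL/6NJ, the CD4 T cell type known for interferon gamma, made by differentiation in culture. The 3 libraries form 1 group with no treatment or genotype contrast. The headers carry 24 hr, and the labels give an unknown age and the same donor entry for all 3. The labels number biological replicates 1, 2 and 3 but do not name separate animals or cultures, so a p-value here reflects the spread among these 3 libraries, part or all of which may be technical.

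Glycolysis splits glucose into pyruvate and yields ATP and NADH without oxygen. The glucose transporter brings glucose into the cell, hexokinase traps it as a phosphate, phosphofructokinase commits it to the pathway, and pyruvate kinase and lactate dehydrogenase finish it. Activated T cells are known for taking up more glucose and for turning much of it into lactate even where oxygen is present, a program in which the transcription factors Myc and Hif1a act.

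Each library held 2945353 to 3553547 counted read pairs. The counts were made with a strand option, and read pairs on the opposite strand of a gene were not given to it, so each value below is a level on the counted strand. The mitochondrial gene mt-Nd6, which lies opposite to mt-Nd5, had 15.1, 23.3 and 18.2 times the counts per kb of the highest other mitochondrial mRNA in replicates 1, 2 and 3. Genes that share exon bases with a gene on the opposite strand held 68.0%, 77.5% and 70.3% of the counts. The strand that the library kit marks is not stated in the labels or headers, so the counted strand may be the wrong one. In that case the counts would be mostly opposite-strand signal, and the levels, their order, the shares of each step and the marker values would not be those of the named genes' mRNA. This limit holds for every value below. Of the T cell markers 9 of 9 were detected, with summed levels of 1106, 682 and 948 TPM (counts scaled by exon length and by the library's sum). Among them Cd3e and Cd247 share exon bases with Gm48719 and Pou2f1 on the opposite strand, and Cd247 gave 184, 190 and 179 TPM of these sums. Of the Th1 markers 3 of 5 were detected, and Tbx21, the gene of the Th1 factor T-bet, had 15, 11 and 8 counts, while Ifng had 2, 2 and 1. The highest Th1 marker, Il12rb2 at 12.5, 15.8 and 16.1 TPM, shares exon bases with Serbp1 on the opposite strand. Markers of NK cells were detected for 0 of 4 and of CD8 T cells, B cells and erythroid cells for 1 of 2, 1 of 5 and 1 of 4, with Ms4a1, Ncr1, Klrb1c, Klrd1, Hba-a1 and Hbb-bs among those at 0 counts. The detected ones were Cd8b1 with 30, 20 and 36 counts (10.4 ± 2.64 TPM), Cd79a with 19, 18 and 22 (7.34 ± 0.653 TPM) and Alas2, which shares exon bases with an opposite-strand gene, with 21, 27 and 30 (5.9 ± 1.14 TPM). Each of these stood above Tbx21 at 2.47 ± 0.727 TPM. The macrophage list had 2 of 5 detected and summed to 163, 169 and 163 TPM, nearly all of it Csf1r, which shares exon bases with Hmgxb3 on the opposite strand, while Lyz2 and Itgam had 0 counts. In bulk samples, fewer cells of a type and less RNA per cell cannot be told apart.

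All 10 genes were detected, meaning 1 TPM or more in every library, against 22.5% of all genes and 41.2% of protein-coding genes. Together they took 12612, 6557 and 11189 counts in replicates 1, 2 and 3, which is 0.355% (exact binomial 95% interval 0.349 to 0.361), 0.223% (0.217 to 0.228) and 0.332% (0.326 to 0.338) of each library. Replicate 2 thus held the smallest share, outside the counting intervals of the other two. The median of the 10 genes was 148, 79.3 and 138 TPM (122 ± 37.0, SD, n = 3), beside 9.77 ± 2.29 TPM for all protein-coding genes detected in every library. From the lowest to the highest gene the levels spanned from Slc2a1 to Ldha, which was 28.3, 32.2 and 32.1 times as high per length.

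**Figure D1:**
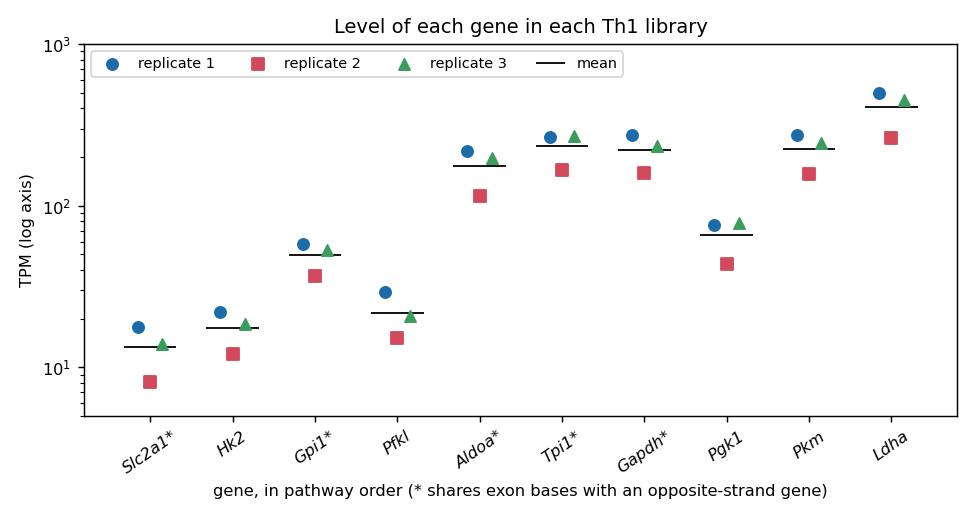
Level of each of the 10 genes in TPM (log axis) in each library, in pathway order, with the mean as a line; an asterisk marks a gene that shares exon bases with an opposite-strand gene. Ldha stood highest at 405 TPM and Slc2a1 lowest at 13.3 TPM on average, and replicate 2 is the lowest point of every gene.

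Uptake and trapping of glucose stood at the low end. Slc2a1 (ENSMUSG00000028645, mm10 chr4:119108711-119137983, plus strand) encodes GLUT1, the main glucose transporter of activated T cells. It had 118, 50 and 92 counts in replicates 1, 2 and 3, or 17.7, 8.16 and 14.0 TPM (13.3 ± 4.82, SD, n = 3), at percentiles 80.7 to 84.6 of protein-coding genes. Hk2 (ENSMUSG00000000628, chr6:82725025-82774454, minus strand) encodes the inducible hexokinase that phosphorylates the incoming glucose. It had 250, 125 and 206 counts, or 22, 12 and 18.5 TPM (17.5 ± 5.10). Replicate 2 was the lowest for both genes, and Hk2 was above Slc2a1 in 3 of 3 libraries although their ranges overlapped.

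Of the 2 listed genes of the hexose phosphate steps, Gpi1 stood above Pfkl. This does not hold for the whole step of Pfkl, whose 3 genes summed to 163, 165 and 159 TPM. Gpi1 (ENSMUSG00000036427, chr7:34201330-34230336, minus strand) encodes glucose phosphate isomerase, which turns glucose phosphate into fructose phosphate, and had 707, 415 and 645 counts, or 57.6, 36.8 and 53.5 TPM (49.3 ± 11). Pfkl (ENSMUSG00000020277, chr10:77986947-78010083, minus strand) encodes the liver-type subunit of phosphofructokinase and had 373, 176 and 258 counts, or 29.4, 15.1 and 20.7 TPM (21.7 ± 7.22). Gpi1 was 2.33 times as high as the Pfkl gene alone on average, and their ranges over the libraries did not overlap.

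The genes of the next 3 steps, Aldoa, Tpi1 and Gapdh, stood in the upper group, together with Pkm and Ldha of the last steps. Aldoa (ENSMUSG00000030695, chr7:126795234-126809108, minus strand) encodes aldolase A, which cleaves fructose bisphosphate, and had 1569, 756 and 1388 counts, or 219, 115 and 197 TPM (177 ± 55.1). Tpi1 (ENSMUSG00000023456, chr6:124810586-124814296, minus strand) encodes the isomerase that interconverts the products of aldolase, and had 1389, 800 and 1388 counts, or 265, 166 and 270 TPM (234 ± 58.6). Replicate 2 was the lowest in TPM for both genes. Gapdh (ENSMUSG00000057666, chr6:125161715-125166467, minus strand) encodes the dehydrogenase that makes NADH, and had 2137, 1158 and 1813 counts, or 272, 160 and 235 TPM (222 ± 56.9).

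The next enzyme gene stood lower. Pgk1 (ENSMUSG00000062070, chrX:106187100-106203699, plus strand) encodes phosphoglycerate kinase, the first ATP-yielding enzyme, and had 325, 171 and 328 counts, or 76.2, 43.6 and 78.2 TPM (66.0 ± 19.4). Aldoa was 2.68 times as high as Pgk1 on average, and the ranges of this pair did not overlap. The mean level of Pgk1 was also below those of Gapdh and Tpi1, whose lowest libraries were 160 and 166 TPM.

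The last steps held the highest gene. Pkm (ENSMUSG00000032294, chr9:59656368-59679375, plus strand) encodes the muscle-type pyruvate kinase, whose isoforms the gene counts do not separate, and had 2593, 1385 and 2279 counts, or 273, 158 and 244 TPM (225 ± 59.5). Of its exon bases 767 are shared with Gm49759 on the same strand, so counts in that stretch are uncertain. Ldha (ENSMUSG00000063229, chr7:46841475-46855627, plus strand) encodes the lactate dehydrogenase subunit that favours making lactate from pyruvate, and had 3151, 1521 and 2792 counts, or 501, 263 and 451 TPM (405 ± 126). It lay at percentiles 99 to 99.5 of protein-coding genes.

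By mean TPM the order was Ldha, Tpi1, Pkm, Gapdh, Aldoa, Pgk1, Gpi1, Pfkl, Hk2 and Slc2a1. Between neighbours in this order the ranges over libraries were apart only between Aldoa and Pgk1 and between Gpi1 and Pfkl. Ldha was 1.71 times as high as Tpi1 and above it in 3 of 3 libraries. Tpi1, Pkm and Gapdh could not be ordered, since Tpi1 was above Pkm, and Pkm above Gapdh, in 2 of 3 libraries. Of the 10 genes, 5 share exon bases with an opposite-strand gene and the others do not, so the order sets side by side genes of unlike position.

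Pseudogene copies bear on the levels of some of these genes, because read pairs that map to several places were not counted, per the options in the file headers. Of the 50-base windows of the annotated transcripts, 58.21% for Gapdh and 67.96% for Pgk1 also occur in an annotated pseudogene. For Gapdh the windows were shared with 213 pseudogenes, and the 209 found among the counted genes held 123, 91 and 101 counts. Of the 5 that share windows with Pgk1, the 2 found among the counted genes held 0 counts in every library. Counts on the others were not available. The share was 18.35% for Pkm, 18.31% for Gpi1, 10.4% for Ldha, 6.83% for Tpi1 and 4.17% for Aldoa, and 0 windows were shared for Slc2a1, Hk2 and Pfkl. The levels of Gapdh and Pgk1 are therefore the most uncertain by this measure, and how many of their pairs went uncounted was not tested.

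**Figure D2:**
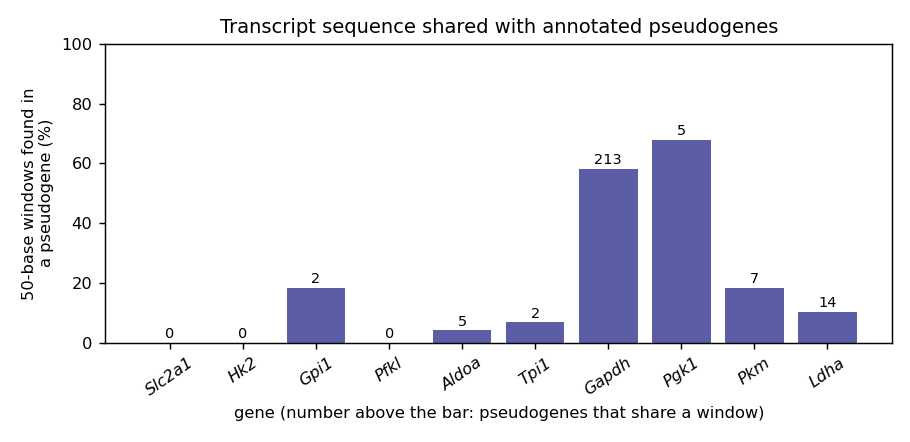
Percent of the 50-base windows of each gene's annotated transcripts that also occur in an annotated pseudogene; the number above each bar is the number of pseudogenes. Pgk1 at 67.96% and Gapdh at 58.21% stand far above the other 8 genes, which lie between 0 and 18.35%.

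Exon bases are shared with an opposite-strand gene in 5 of the 10 genes, Slc2a1, Gpi1, Aldoa, Tpi1 and Gapdh, against 22.1% of protein-coding genes. In 3 of these the opposite gene held most of the counts of the pair. Opposite Gpi1 lies the lincRNA gene Gm26762, with which it shares 741 bases in 4 blocks, and which had 8721, 9400 and 9342 counts, 12.3, 22.7 and 14.5 times those of Gpi1. Opposite Aldoa, the protein-coding gene Fam57b shares only 25 bases, which are coding in Aldoa, and had 9064, 8533 and 8715 counts, 5.78, 11.3 and 6.28 times those of Aldoa. Opposite Slc2a1, the antisense gene Gm12868 shares 105 bases and had 725, 664 and 681 counts. Over these pairs, Slc2a1 took 14%, 7% and 11.9% of the counts of its pair, Gpi1 7.5%, 4.23% and 6.46%, and Aldoa 14.8%, 8.14% and 13.7%, each lowest in replicate 2 (the exact binomial 95% interval of Aldoa was 7.59 to 8.71 in replicate 2 and 13.1 to 14.4 in replicate 3). Gm12868 has 417 exon bases and Slc2a1 3506, so that per length the share of Slc2a1 was 1.46% ± 0.517 in place of 11% ± 3.59 by counts.

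For the other two the overlap lies at the end of the gene and the glycolysis gene took most of the pair. Tpi1 shares 34 bases of its untranslated end with Spsb2, which had 125, 108 and 113 counts, and took 91.7%, 88.1% and 92.5% of the pair. Gapdh shares 68 bases with Iffo1, which had 36, 22 and 13 counts, and took 98.3%, 98.1% and 99.3%. For the 5 genes without a shared base, the nearest opposite-strand gene was taken. Gm17034 inside the span of Hk2 had 6, 5 and 4 counts. The highest was 1810043G02Rik, 42 bases from Pfkl, with 104, 127 and 105 counts beside 373, 176 and 258 on Pfkl.

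A coding block of Gpi1 and the coding stretch of Aldoa shared with the opposite genes are shown, as examples of where a fragment can be given to either gene by its strand. Of the 4 Gpi1 blocks, 2 others also hold coding bases, 91 and 122, and are not shown. Both stretches shown were read from the GENCODE M21 transcripts (GRCm38) on the strand of the glycolysis gene, minus. They lie at chr7:34227118-34227237 for the 120-base Gpi1 block and chr7:126797668-126797692 for the 25 bases of Aldoa.
Gpi1 and Gm26762: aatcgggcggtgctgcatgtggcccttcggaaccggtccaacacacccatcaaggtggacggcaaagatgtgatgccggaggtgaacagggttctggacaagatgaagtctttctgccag
Aldoa and Fam57b: cgcattgtggctccgggcaagggca

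**Figure D3:**
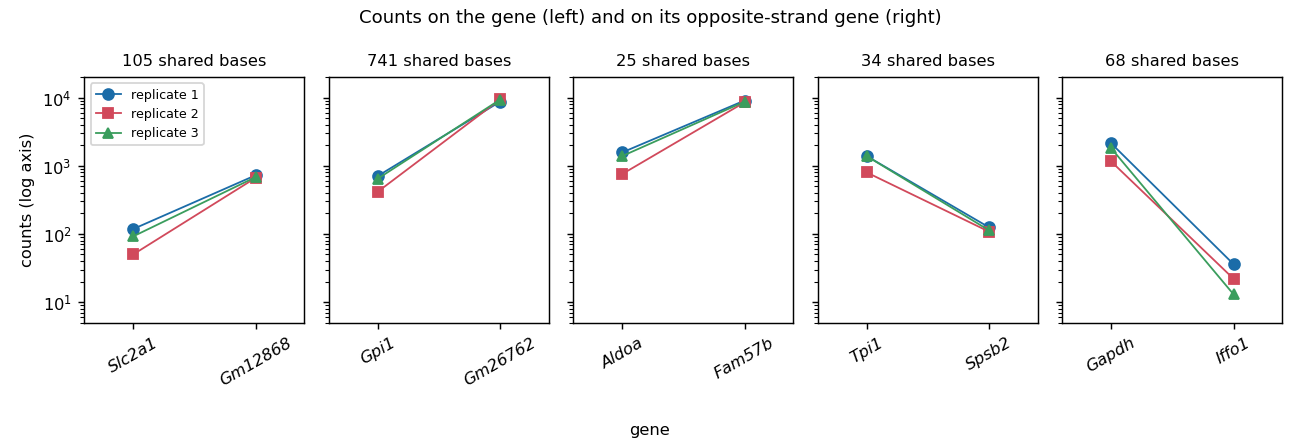
Counts (log axis) on each of the 5 genes and on the opposite-strand gene that shares exon bases with it; a line joins the values of a library. Gm26762 lies between 8721 and 9400 counts and Fam57b between 8533 and 9064, while Gpi1 and Aldoa are lowest in replicate 2 at 415 and 756.

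Differences between the libraries were larger than counting error for most of the 10 genes. A chi-square test of each gene's counts against Poisson error, at library sizes scaled by TMM (trimmed mean of M values) and with Benjamini-Hochberg adjustment over all genes tested, called 3642 of 10216 genes at 0.05, or 35.6%. Of the 10 genes 7 passed. A gene with more counts passes this test more readily at the same ratio, and the share over all genes was not matched for counts. The smallest values in this chi-square test were those of Ldha (adjusted p = 2.91e-19), Aldoa (adjusted p = 1.22e-09) and Pkm (adjusted p = 1.55e-06). Tpi1 (adjusted p = 2.88e-05), Gapdh (0.000362), Pfkl (0.00251) and Pgk1 (0.013) also passed the chi-square test. Slc2a1 (adjusted p = 0.121), Hk2 (0.181) and Gpi1 (0.37) did not pass the chi-square test, which does not show that they were equal.

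The difference had the same direction in every gene, except for Gpi1 under 1 of the other scalings given below. After TMM scaling all 10 genes were lowest in replicate 2, against 42.6% of the genes tested. For the log2 ratio of replicate 2 to the mean of replicates 1 and 3, the median over the 10 genes was -0.28. The ratios ran from -0.49 for Slc2a1 to -0.13 for Gpi1, and the median over all genes tested was -0.04. Aldoa stood at -0.40, Ldha at -0.39 and Pgk1 at -0.37, while Gapdh at -0.20 and Tpi1 at -0.23 were closer to 0.

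Over all genes tested, the direction differed by position relative to the opposite strand. Genes tested that share no exon base with an opposite-strand gene had a median log2 ratio of -0.19 and were lowest in replicate 2 in 57.5% of cases. Those that share exon bases had a median of 0.38 and were lowest there in 22.5%. At this scaling the 10 genes did not divide in this way: the 5 that share exon bases ran from -0.49 to -0.13 and the other 5 from -0.39 to -0.24. With TMM within each overlap class, given below, the ranges were apart, with the genes that share exon bases lower. The opposite-strand genes of Slc2a1, Gpi1, Aldoa, Tpi1 and Gapdh stood at 0.49, 0.62, 0.51, 0.43 and 0.45, above 0 in 5 of 5, so that replicate 2 lay below the mean of the other libraries for each of these glycolysis genes and above it for the opposite gene. For Iffo1, with 36, 22 and 13 counts, replicate 2 lay between the others. The chi-square test passed for Gm26762 (adjusted p = 1.09e-287), Fam57b (1.08e-163), Gm12868 (2.69e-11) and Iffo1 (0.0345), and not for Spsb2 (adjusted p = 0.0852). The share of counts on genes with an opposite-strand overlap, highest in replicate 2 at 77.5%, moved with the result, and its part in it was not tested.

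**Figure D4:**
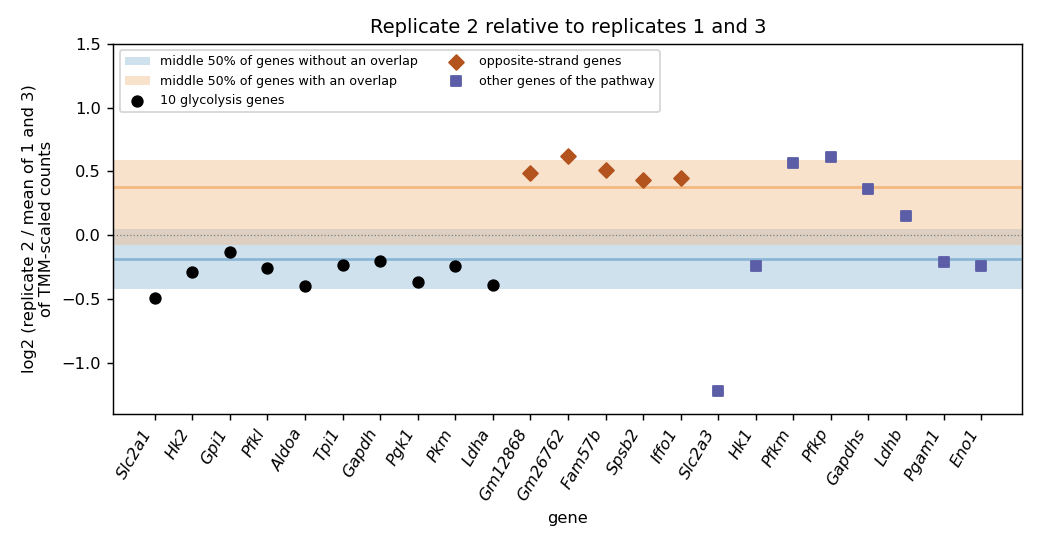
Log2 ratio of replicate 2 to the mean of replicates 1 and 3, from TMM-scaled counts, for the 10 genes (black), their opposite-strand genes (orange) and other genes of the pathway (blue squares); bands hold the middle 50% of genes without (blue) and with (orange) an opposite-strand overlap, with the median as a line at -0.19 and 0.38. The 10 genes lie between -0.49 and -0.13 at this scaling (Gpi1 is at 0.05 with the TMM of genes without an overlap), and the 5 opposite-strand genes between 0.43 and 0.62.

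The scaling set how many of the 10 genes passed. Size factors of DESeq2 left 7 of 10 with 34.7% of all genes called, and no filter on low counts left 7 with 19.3%. With total counts all 10 passed, with 51.7% of genes called, and the median log2 ratio of the 10 genes was -0.62 beside -0.38 for all genes. Scaling by TMM within genes of the same overlap class gave 6 of 10, with 26.8% of genes called, and changed which genes passed. Slc2a1 (chi-square test, adjusted p = 0.000782) and Gpi1 (4.98e-09) passed there, and Pfkl (0.0969), Pgk1 (0.0879) and Pkm (0.332) did not. The 6 were the 5 that share exon bases and Ldha. Log2 ratios ran from -0.9 for Slc2a1 to -0.53 for Gpi1 among those 5. Among the other 5 they ran from -0.22 for Ldha to -0.06 for Pkm. At this scaling 9 of 10 were lowest in replicate 2, against 41.1% of the genes tested. Scaling all genes by the TMM of those without an overlap, an alternative chosen after seeing the data, left only Aldoa, Tpi1 and Ldha, with 33.3% of genes called. The log2 ratios then ran from -0.31 for Slc2a1 to 0.05 for Gpi1, beside a median of 0.14 for all genes. The direction of Gpi1 flipped there, and 7 of the 10 were lowest in replicate 2, against 28.3% of the genes tested.

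Fewer genes passed when replicate 2 was left out. Without replicate 2 the chi-square test called 9.04% of genes and 2 of the 10, Tpi1 (adjusted p = 0.0238) and Pfkl (adjusted p = 0.0287). Without replicate 1 it called 6 of 10, with 24.4% of genes, and Pfkl no longer passed the chi-square test (adjusted p = 0.755). Without replicate 3 it called 6 of 10, with 37% of genes. There Tpi1 (adjusted p = 0.0963) and Pgk1 (0.122) no longer passed the chi-square test, and Slc2a1 did (0.0481). Pfkl had 373 counts in replicate 1 and 258 in replicate 3, the widest gap among the 10 genes between those libraries in relative terms. Among genes without an overlap only, where TPM was recomputed, replicate 2 was 0.782 times the mean of the others for Ldha, 0.797 for Pgk1, 0.839 for Hk2, 0.858 for Pfkl and 0.869 for Pkm.

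In 4 of the 8 steps with several genes listed, 1 gene held nearly all of the level per length. Aldoa took 99.8% ± 0.257 (SD, n = 3) of the aldolase genes, Pkm 99.8% ± 0.303 of the pyruvate kinase genes and Pgk1 100% of the phosphoglycerate kinase genes, since Pgk2 had 0 counts. Ldha took 97.3% ± 0.732 of the lactate dehydrogenase genes. Ldhb, whose subunit favours the reverse reaction, had 43, 25 and 25 counts, and the ratio of Ldha to Ldhb per length was 34.8, 28.9 and 53.0. Gapdh took 84.6% ± 3.03 and the sperm-type gene Gapdhs the rest with 129, 105 and 114 counts, but Gapdhs shares exon bases with Tmem147os on the opposite strand.

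Glucose transport and hexokinase were shared between genes. Slc2a1 took 79.1% ± 3.59 of the transporter genes listed. Slc2a3, which encodes the high-affinity transporter GLUT3, had 44, 10 and 26 counts and 10.8% ± 2.84, was lowest in replicate 2 and passed the chi-square test (adjusted p = 0.0216). Slc2a8 had 10, 3 and 12 counts, and Slc2a2, Slc2a4 and Slc2a6 had at most 4 in any library. Hk2 took 52.9% ± 2.54 and Hk1, the constitutive hexokinase, 43.9% ± 3.02 with 262, 152 and 269 counts and exon bases shared with Hk1os. By raw counts the order turned, with 45% ± 2.63 for Hk2 and 53.3% ± 2.94 for Hk1, which was higher in 3 of 3 libraries. Hk3 took 2.96% ± 1.22, and Hkdc1 had 0 counts.

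Phosphofructokinase was the step where the listed member was not the highest gene per length. Pfkp, the platelet-type subunit, had 1723, 1781 and 1724 counts (101 ± 6.46 TPM) and took 62.4% ± 3.26 of the step, Pfkm, the muscle type, 24.2% ± 1.42 with 206, 213 and 219 counts, and Pfkl 13.4% ± 4.48. The ratio of Pfkp to Pfkl per length was 3.28, 7.19 and 4.75, highest in replicate 2. Pfkp and Pfkm share exon bases with Pitrm1 and Senp1 on the opposite strand, and both were higher in replicate 2, by 0.61 and 0.57 on the log2 scale, and passed the chi-square test (adjusted p = 4.15e-49 and 1.58e-05). Pfkl has no such overlap. Whether cells used Pfkp or Pfkl more cannot be read from these counts, since the genes differ in position as well as in level.

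**Figure D5:**
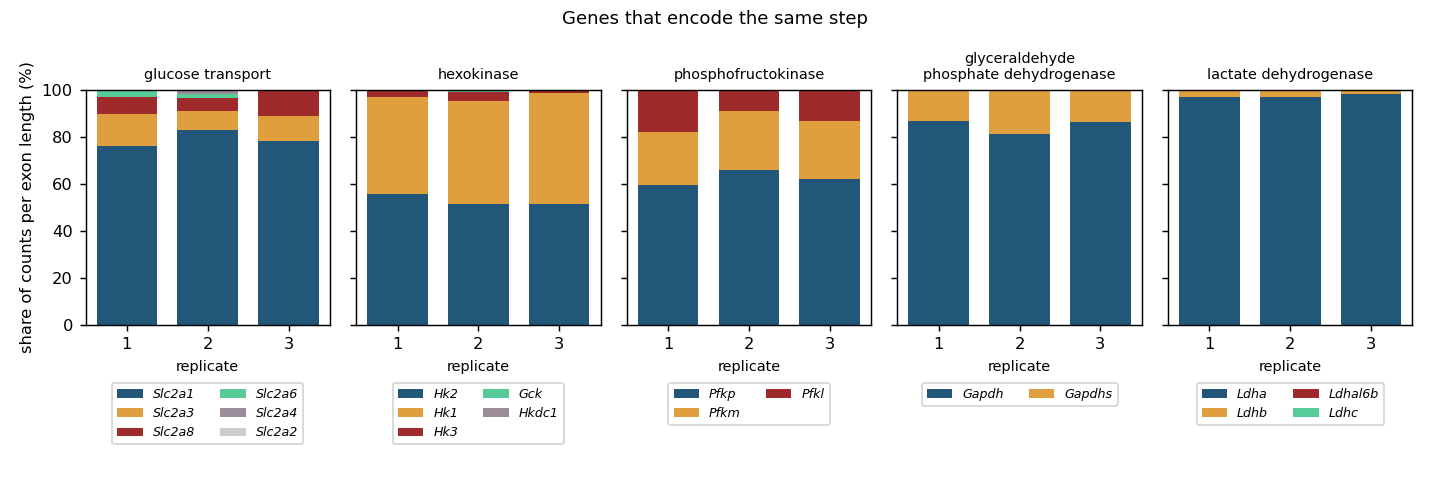
Share of counts per exon length (%) among the genes listed for the same step in each library, for 5 steps. Ldha fills nearly all of its step, Hk2 and Hk1 split theirs, and Pfkl takes 18.1%, 9.16% and 13% of phosphofructokinase in replicates 1, 2 and 3.

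Mutase and enolase act between phosphoglycerate kinase and pyruvate kinase. Of 7 mutase and enolase genes 4 were detected, and 1 of the 4 tested varied, beside 35.6% of all genes. This was Eno1, the widely expressed enolase gene, with 1306, 671 and 1061 counts (102 ± 28.4 TPM; chi-square test, adjusted p = 0.000213), again lowest in replicate 2. Pgam1, the main phosphoglycerate mutase gene, stood at 44.5 ± 12.4 TPM and the muscle enolase gene Eno3 at 28.1 ± 8.95 TPM. Pgk1, at 66 TPM, thus lay between Pgam1 and Eno1.

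Lactate leaves the cell through monocarboxylate transporters held in the membrane by partner proteins. Of 5 genes on this list 4 were detected. Bsg, which encodes the partner basigin, stood at 128 ± 29.6 TPM, Emb, the other partner, at 49.2 ± 16.3 and the transporter gene Slc16a1 at 34.8 ± 6.29. Of the 4 tested, 2 passed, beside 35.6% of all genes, in opposite directions: Emb was lowest in replicate 2 (chi-square test, adjusted p = 0.0273) and Slc16a3 was highest there, with 90, 105 and 92 counts (chi-square test, adjusted p = 0.00019). Emb shares exon bases with Gm17509 on the opposite strand, and Slc16a3 has no such overlap. Slc16a3, the transporter gene known for lactate export, and Pdk3 below are named after their values were seen.

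Genes around the pathway were called at rates to be read beside the 35.6% of all genes, which was not matched to them for counts. Of 12 genes for the control of phosphofructokinase by its bisphosphate activator and for gluconeogenesis, 6 were detected and 2 of 6 tested varied. Pfkfb2 (14.4 ± 1.52 TPM; chi-square test, adjusted p = 4.73e-06) was highest relative to library size in replicate 2, and Pfkfb3 (6.59 ± 2.94 TPM; adjusted p = 0.00358) was lowest there. Pfkfb2 shares exon bases with Yod1 on the opposite strand and Pfkfb3 has no such overlap, so these genes differ in position too. Tigar stood at 8.98 ± 1.30 TPM, and the gluconeogenic genes Fbp1, Fbp2 and G6pc had 0 counts in every library, which allows up to 0.844, 1.02 and 0.89 CPM (counts scaled to library size) in replicates 1, 2 and 3.

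Of 13 genes for entry of pyruvate into mitochondria 10 were detected and 3 of 10 varied, a share near the 35.6% of all genes. They were Pdha1, a pyruvate dehydrogenase subunit gene (39.0 ± 12.5 TPM; chi-square test, adjusted p = 0.0157), Dld, which the same complex uses (20.9 ± 7.42 TPM; 0.0349), and the inhibitory kinase gene Pdk3 (9.72 ± 4.89 TPM; 0.0155), all lowest in replicate 2. Of these, Pdha1 shares exon bases with Map3k15 on the opposite strand. Pdhb led with 47.1 ± 10.5 TPM and Pdk4 had 0 counts. All 7 pentose phosphate genes were detected, with Tkt at 74.6 ± 17.9 TPM, Taldo1 at 39.0 ± 9.42 and G6pdx at 28.0 ± 5.49, and 0 of 7 passed the test, beside 35.6% of all genes. Before adjustment 2 of the 7 were under 0.05, and with DESeq2 size factors 0 passed and 1 was under 0.05 unadjusted.

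Regulators of glucose use were detected for 10 of 12 genes and 0 of 10 passed the chi-square test, beside 35.6% of all genes. Before adjustment 2 of these 10 were under 0.05, and with DESeq2 size factors 0 passed and 2 were under 0.05 unadjusted. Myc, which raises glycolytic genes in activated T cells, stood at 123, 72.4 and 112 TPM (102 ± 26.7; adjusted p = 0.0726 in the chi-square test). Mlx, the partner of the glucose-sensing factors, stood at 45.4 ± 2.65 TPM, and Hif1a, the oxygen-regulated factor, at 26.4, 15.3 and 23.4 TPM (21.7 ± 5.73). Hif1a and Mlx share exon bases with opposite-strand genes, Gm15283 and Psmc3ip, and Myc does not. Mlxipl had 0 counts in every library.

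Promoter letters of the 10 genes are described here, and a link between them and the levels or their differences between libraries was not tested. RefSeq start sites (GRCm38.p6) gave 14 windows for the 10 genes, each from 250 bases before to 50 after a start. They were searched on both strands for ACGTG, the core of the element bound by Hif1a, and for CACGTG, the E-box bound by Myc, which contains it. ACGTG occurred for 7 of the 10 genes, beside 21.8% of 27025 genes with such windows, and in 8 of the 14 windows, beside 19.6% of all windows. Of the 8, 2 are overlapping windows of Aldoa that hold the same match. CACGTG occurred in 1 gene, Ldha, beside 8.09% of genes. The windows of Gpi1, Pfkl and Tpi1 held neither. ACGTG and CACGTG both contain CG, and the shares over all genes and windows were not matched for CG content. A match describes letters and not binding, and no measurement of either factor's binding is used here.

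The 4 windows with more than 1 match, a number reached by 2.69% of all windows, are shown with the matches in capitals, on the strand of the gene. They lie at chr6:82774405-82774704 (minus) for Hk2, chrX:106186850-106187149 (plus) for Pgk1, chr9:59656977-59657276 (plus) for the second window of Pkm and chr7:46845554-46845853 (plus) for the first window of Ldha. Ldha has 3 matches, 2 of them within CACGTG, and the others have 2 each.
Hk2: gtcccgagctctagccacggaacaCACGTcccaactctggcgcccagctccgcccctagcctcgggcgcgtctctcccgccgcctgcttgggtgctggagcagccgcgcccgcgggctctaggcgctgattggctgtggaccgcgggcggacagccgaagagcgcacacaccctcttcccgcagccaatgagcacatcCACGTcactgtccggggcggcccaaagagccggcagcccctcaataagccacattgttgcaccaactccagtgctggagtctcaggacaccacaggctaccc
Pgk1: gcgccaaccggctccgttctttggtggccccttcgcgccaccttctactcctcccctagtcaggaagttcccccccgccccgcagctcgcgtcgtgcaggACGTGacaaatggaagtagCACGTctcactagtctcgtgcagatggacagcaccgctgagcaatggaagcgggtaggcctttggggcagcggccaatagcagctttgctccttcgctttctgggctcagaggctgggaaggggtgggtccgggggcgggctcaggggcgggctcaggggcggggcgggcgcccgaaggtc
Pkm: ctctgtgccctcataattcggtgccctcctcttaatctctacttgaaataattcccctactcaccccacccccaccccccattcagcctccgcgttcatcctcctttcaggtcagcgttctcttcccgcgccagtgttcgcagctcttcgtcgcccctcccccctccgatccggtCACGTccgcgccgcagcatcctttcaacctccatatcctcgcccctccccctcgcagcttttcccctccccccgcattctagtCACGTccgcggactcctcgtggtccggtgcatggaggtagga
Ldha: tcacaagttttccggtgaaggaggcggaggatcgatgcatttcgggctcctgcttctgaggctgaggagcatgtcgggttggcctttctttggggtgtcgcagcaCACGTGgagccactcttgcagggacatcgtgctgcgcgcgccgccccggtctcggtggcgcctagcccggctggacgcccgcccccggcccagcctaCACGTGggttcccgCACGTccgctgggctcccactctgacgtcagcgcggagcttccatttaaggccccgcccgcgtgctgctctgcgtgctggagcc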

How the data were processed

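Per the file headers, the authors counted read pairs per gene with featureCounts 1.4.6-p4 over exons of GENCODE M13 gene models, requiring both ends aligned and strand option 1, without counting pairs that map to several places. The labels give mm10, and the deposited values are raw counts. For the aligner, no version is stated in the labels or headers. The assay is labelled total RNA, while the library protocol named is for polyA RNA.

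From these deposited counts and the exon lengths beside them, TPM and CPM were calculated. Symbols came from GENCODE M21, which matched 50376 of 50600 gene identifiers. Overlap with the opposite strand was taken from the exon coordinates of the deposited files. With 1 group, the test across genes was a chi-square test of counts against Poisson error (2 degrees of freedom) at TMM-scaled library sizes, over genes passing filterByExpr of edgeR 4.0.16, with Benjamini-Hochberg adjustment at 0.05. DESeq2 1.42.0 gave other size factors. The test was tested on simulated Poisson counts, the error model that it assumes. That run therefore does not show how the test behaves with a wider spread between libraries. R 4.3.3, Python 3.11.15, pandas 2.3.3 and scipy 1.17.1 were used. Shared pseudogene sequence was found as identical 50-base windows of annotated transcripts, and promoters are from RefSeq.

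The 10 genes, the lists and the alternatives were chosen with earlier results of these data known. Named genes are the 10, the other genes of each step, opposite-strand genes, and the 3 highest and all zero genes of each other pathway list. Some marker genes are not reported here. Totals of 2945353 to 3553547 counts put the limit that a count of 0 allows, 3 counts, at 0.844 to 1.02 CPM. These limits and the binomial intervals hold for counting error alone, because without molecular identifiers several pairs can come from 1 molecule.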

Additional observations from a re-analysis of the deposited data

How the results depend on the processing

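No paired analysis was possible because there is 1 group and no other group shares its replicate numbers. Over the libraries left out in turn, the genes that varied ranged from 971 to 3795 and the glycolysis genes that varied from 2 to 6, both lowest without replicate 2. With TMM of genes without an opposite-strand overlap 3 of the 10 passed in place of 7. With TPM over protein-coding genes the median level of the 10 genes was 298 in place of 122, and with TPM over genes without an overlap the median of the 5 such members was 361 in place of 66.0. Over protein-coding counts the summed share was 0.437% in place of 0.303%. With raw counts in place of counts per length, the share of the step was 71.5% for Slc2a1, 45.0% for Hk2, 93.4% for Gapdh and 98.7% for Ldha. Per length, the share of the opposite-strand pair was 1.46% for Slc2a1 and 85.6% for Tpi1. The denominators and lengths differ by construction in these settings. Of the chi-square calls on the 10 genes over all these alternatives, 59 kept their side of the threshold, 15 lost and 6 gained it. Depth limits Slc2a1 most, with 50 counts in replicate 2, and whether pairs lost to pseudogene copies lower Gapdh and Pgk1 was not tested.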
